A study of Mus musculus with 32 samples.

Results

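Chromatin accessibility over tRNA genes was compared in brain between mice lacking the phenylalanine tRNA gene tRNA-Phe-GAA-3-1 (Phe31, genotype tRNA-Phe-GAA-3-1-/-) and wild-type mice (WT). The comparison took 6 of the 32 libraries of the series, which were the 3 Phe31 brains (replicates 10, 11 and 12) and the 3 WT brains (replicates 1, 2 and 3) that share its table. All tRNA loci of that table were members, the 7 tRNA-Phe loci and 394 others, and no locus was chosen by its values. Accessibility was measured by ATAC-seq, in which a transposase cuts open DNA and tags the ends for sequencing. Nuclei came from 20 mg of fresh brain. The mice were male, on a C57BL/6N background, matched for age and litter and 10 weeks old. The 6 libraries carry the same batch number. The knockout lines were made with a single CRISPR guide, backcrossed, and bred for at least 10 generations. The extent of the 3-1 deletion is not given in the sources used here. The methods say that the mice came from different litters, but the labels tie no library to an animal or litter, so p-values measure the spread between these libraries.

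tRNA genes are short and are transcribed by RNA polymerase III from a promoter that lies inside the gene. This promoter has an A box and a B box, both bound by the factor TFIIIC, which brings TFIIIB to the start site. Genes that are transcribed are usually held in open chromatin. Genes whose tRNAs share an anticodon but differ in the rest of the sequence are called isodecoders. tRNA-Phe with the anticodon GAA reads both phenylalanine codons, so all members of the family serve the same amino acid.

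The sequences of the family show the site that the guide targets and how 3-1 differs from its relatives. All 7 genes have 73 bases, and the 20-base guide used for editing matched a site followed by the motif AGG in each of the 7 genes and nowhere else in GRCm39. In the lines below, from GRCm39, the guide site and this motif (positions 24 to 46 of the gene) are in capitals. The 5 genes named 1-1 to 1-5 are identical, so 1-1 stands for them.
3-1: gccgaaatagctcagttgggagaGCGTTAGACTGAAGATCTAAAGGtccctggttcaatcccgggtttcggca
1-1: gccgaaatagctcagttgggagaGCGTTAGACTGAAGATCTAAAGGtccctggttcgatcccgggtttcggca
2-1: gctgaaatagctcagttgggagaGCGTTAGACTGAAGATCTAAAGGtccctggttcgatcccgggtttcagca

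Counted from the 5′ end and written from 3-1 to the other gene, 1-1 to 1-5 differed from 3-1 by A57G alone, and 2-1 differed by C3T, A57G and G70A. Position 57 lies within the B box. Motifs were taken from the letters of 1-1, with some bases of each box as N. The B box letters GGTTCGANNCC, which keep the G of position 57, stood at positions 52 to 62 in 6 of the 7 genes and by that choice could not match 3-1. With N at position 57 (GGTTCNANNCC) the letters stood there in all 7 genes. The A box letters TNGCNNAGNNGG stood at positions 8 to 19 in all 7 genes and do not overlap the B box. On either strand the B box letters with G at position 57 occurred in 0.122% of 32851 RefSeq promoter windows of GRCm38.p6, those with N there in 0.794%, and the A box letters in 5.03%. A match of letters is a description and was not tested for binding.

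The flanks separate the copies. In the window below, the gene of 3-1 is in capitals with the 50 bases on each side that the authors added when they counted reads.
3-1: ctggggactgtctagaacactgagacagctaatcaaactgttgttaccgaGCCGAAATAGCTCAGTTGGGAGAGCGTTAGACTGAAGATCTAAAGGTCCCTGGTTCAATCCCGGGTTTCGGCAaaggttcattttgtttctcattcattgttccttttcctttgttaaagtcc

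Of the 50 upstream bases, between 5 and 16 were the same in 3-1 and in each of the other 6 genes, compared base by base. Of the 50 downstream bases, between 12 and 26 were the same.

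On GRCm38.p6, the build of the files, the RefSeq gene n-TFgaa1 at chr13:21882885-21882957 corresponds to 3-1. It overlaps no other RefSeq gene. A consensus peak of 441 bases at chr13:21882802-21883242 covers it, and the peak reaches 83 bases to its left and 285 to its right. The gene lies in a cluster, with 15 other tRNA genes within 50000 bases on either side, of which 9 had a consensus peak. The nearest is the isoleucine gene n-TIaat10 at chr13:21882033-21882106, 779 bases away and also under a peak. The tRNA-Phe genes 1-1 to 1-5 lay under peaks too, whereas 2-1 (n-TFgaa2, chr19:12008545-12008617) did not. In the list as a whole, which is shared by both groups, 231 of 430 RefSeq tRNA genes overlapped 1 of the 215211 consensus peaks, or 53.7%. RefSeq names were matched to the loci of the table for tRNA-Phe only, so the neighbours of 3-1 were not picked out among the loci.

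The 6 libraries held 20315 to 26689 reads over all loci, with 27 to 38 reads at the median locus. Of these loci, 290 had a read in all 6 libraries and 25 had none in any. The values below are normalised counts, which are reads divided by 1 size factor per library. Brain identity was checked at tRNA-Arg-TCT-4-1, a tRNA gene known for its expression in the nervous system. It held 0.669% to 0.925% of the counts of the 6 brains and 0.0616% to 0.0969% in 3 WT livers. A consensus peak lay within 1 kb of the start of 4 of 4 neuronal markers with a RefSeq start (Rbfox3, Syt1, Syn1 and Map2), 2 of 2 microglial (Cx3cr1 and P2ry12), 1 of 1 oligodendrocyte (Mog) and 0 of 2 astrocyte markers (Gfap and Slc1a2). Of markers of other cells, 1 of 4 from liver (F2), 0 of 3 from blood, 1 of 1 from endothelium (Cldn5) and 1 of 1 from choroid plexus (Kl) had a peak. In log2 values the correlation between libraries was 0.924 to 0.971 within groups and 0.915 to 0.956 between groups, across loci. Phe31 replicate 12 had a correlation of 0.956 with WT replicate 1 and of 0.924 with Phe31 replicate 10.

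The first question was whether the deleted gene lost its accessibility, which also checks the labels. At 3-1 the normalised counts were 48.3, 46.8 and 42.3 in the WT brains and 2.84, 0.940 and 2.84 in the Phe31 brains. Every Phe31 library lay far below every WT library. The mean went from 45.8 ± 3.13 (SD, n = 3) to 2.20 ± 1.095 (SD, n = 3), with p = 0.1 in an exact two-sided permutation test, the smallest that 3 against 3 allows. On the log2(normalised count + 1) scale the change was -3.93 (95% interval -4.78 to -3.08, adjusted p = 5.37e-06, limma). In reads, 133 remained as 7, so the knockout kept 4.79% with an exact counting interval of 1.89% to 10.1%, which covers counting error only. In WT brains 3-1 held 11.3% ± 0.65 (SD, n = 3) of the counts of the family, and in Phe31 brains 0.552% ± 0.25 (SD, n = 3). The authors' mean log2 concentration over the peak that covers the gene was 5.74 in WT and 2.19 in Phe31. In the brains of the other 2 knockout lines of this batch, 3-1 had 28.6 to 48.0 reads per library of mean depth, against 45.3 to 51.8 in WT and 1.02 to 3.05 in Phe31.

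**Figure D1:**
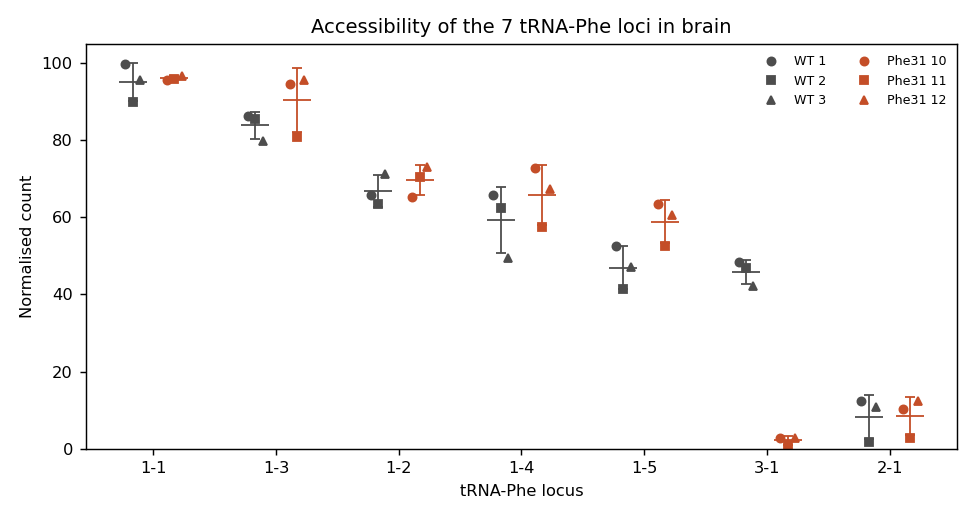
Normalised counts (y axis) at the 7 tRNA-Phe loci (x axis, ordered by WT mean) in the 3 WT and 3 Phe31 brains; points are libraries and bars are the mean ± SD of 3. At 3-1 the Phe31 libraries lie at or below 2.84 and the WT libraries at or above 42.3, while at 1-5 the Phe31 libraries lie at 52.7 to 63.3, above the highest WT library at 52.4.

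The second question was whether the 6 intact tRNA-Phe genes changed in turn. By limma, edgeR and DESeq2 0 of the 5 tested genes were called, and by limma 0 of 5 had an unadjusted p under 0.05. Over all loci tested 0.775% were called and 6.2% had an unadjusted p under 0.05. All 5 had a higher mean in Phe31. The median of their log2 changes was 0.10, beside 0.01 over the 258 loci tested. At 1-1, the locus of the family with the highest counts, the WT libraries had 99.7, 89.9 and 95.4 and the Phe31 libraries 95.5, 95.9 and 96.5. The groups overlapped, with a log2 change of 0.02 (95% interval -0.21 to 0.24). This interval corresponds to 86.5% to 118% of WT.

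The gene 1-5 was the intact copy with the largest difference. Its counts were 52.4, 41.3 and 47.1 in WT and 63.3, 52.7 and 60.6 in Phe31. The groups did not overlap, but the lowest Phe31 library lay just above the highest WT library, at 52.7 and 52.4. Over all 258 loci tested, 11.2% did not overlap between groups, 6.2% higher and 5.04% lower in Phe31. The mean of 1-5 was 125% of WT, and the log2 change was 0.32 (95% interval -0.001 to 0.65, adjusted p = 0.723, limma). Among the 6 intact genes the share of 1-5 went from 13.01% ± 0.89 (SD, n = 3) to 15.1% ± 0.59 (SD, n = 3), with an exact permutation p of 0.1, the smallest possible. The other 5 intact genes overlapped in this share, with exact permutation p-values of 0.3 to 0.9 at n = 3.

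The log2 change was 0.06 at 1-2, 0.10 at 1-3 and 0.15 at 1-4. Their 95% intervals reached at most 0.47, or 138% of WT, and at least -0.21. The gene 2-1 was below the level at which loci were tested. It had 12.3, 1.83 and 10.9 in WT and 10.4, 2.82 and 12.3 in Phe31, from 2 to 13 reads per library. WT replicate 2 and Phe31 replicate 11 were low and the other 4 libraries were alike, so the spread within each group was larger than the difference between groups. In a fit without the filter its log2 change was 0.12 (95% interval -0.95 to 1.20), so a change of up to about that interval was not detectable at this depth.

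The sums over the family put these changes together. Over the 6 intact genes the sum was 382.3, 344.0 and 353.9 in WT and 401.7, 360.1 and 405.0 in Phe31. The Phe31 mean was 108% of WT, and Phe31 replicate 11 lay within the WT range. An exact permutation test, two-sided, gave p = 0.2 at n = 3. With 3-1 included the sums were 430.6, 390.8 and 396.2 in WT and 404.5, 361.1 and 407.8 in Phe31. This came to 96.4% of WT, with an exact permutation p of 0.6 at n = 3. The difference was smaller than the SD of either group, which was 21.6 in WT and 26.1 in Phe31. Without Phe31 replicate 11 the sum of the 7 genes was 100.1% of WT.

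The third question was whether other tRNA genes changed. A locus was tested if its mean normalised count was at least 10, which held for 258 loci. The 143 others carried 1.14% of all counts. With a threshold of 0.05 on the adjusted p, limma called 2 of the 258 loci (0.775%), both lower in Phe31. They were the deleted gene and tRNA-Leu-AAG-1-2. No locus was called higher. At an unadjusted p under 0.05 there were 16 loci (6.2%), edgeR on recovered reads called 2 loci and DESeq2 called 1. The quartiles of the changes were -0.10 and 0.10, and 134 loci had a higher and 124 a lower mean log2 value. The 95% interval stayed within 2-fold in either direction at 242 loci and within 1.5-fold at 193. At the 89 loci with a mean of at least 100, all intervals stayed within 2-fold, and changes ran from -0.21 to 0.30. At the 49 loci with means from 10 to 30 the median distance from the change to the end of its interval was 0.62, so smaller changes there were not detectable.

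**Figure D2:**
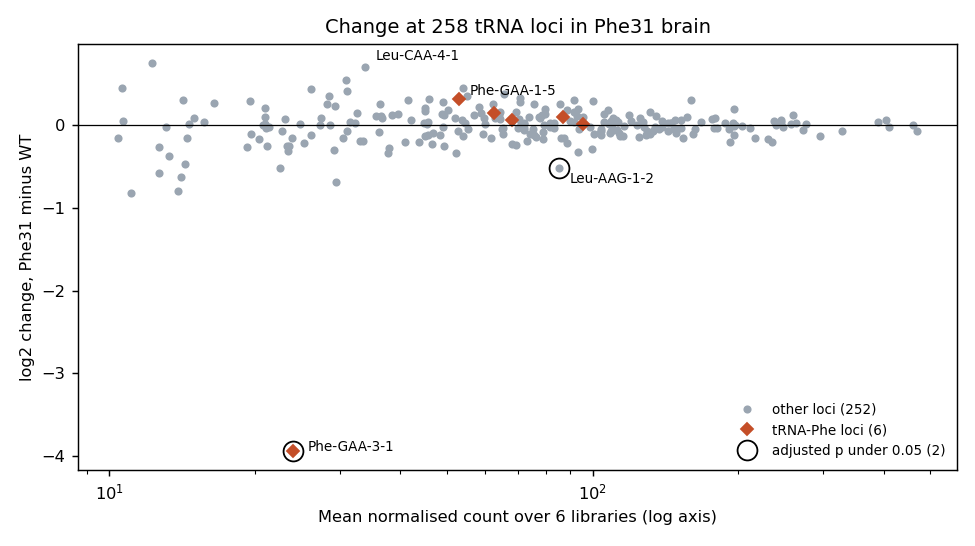
Log2 change (Phe31 minus WT, y axis) against mean normalised count over the 6 libraries (x axis, log scale) for the 258 loci tested; each point is a locus, diamonds are tRNA-Phe loci and circles mark an adjusted p under 0.05 by limma. The circled points are the deleted gene at -3.93 and Leu-AAG-1-2 at -0.52, while the other tRNA-Phe loci lie between 0.02 and 0.32.

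tRNA-Leu-AAG-1-2, a gene for a leucine tRNA that reads codons starting with CU, was the only intact tRNA gene called. Its counts were 99.7, 102.7 and 99.1 in WT and 64.3, 69.6 and 75.7 in Phe31. The WT libraries were close together and all 3 Phe31 libraries lay below them. The mean was 69.5% of WT, and the log2 change was -0.52 (95% interval -0.77 to -0.28, adjusted p = 0.0397, limma). The direction held in all fits made, with changes from -0.59 to -0.46. The call did not hold under another scaling (limma, adjusted p = 0.0578 with TMM and just above 0.05 with equal totals), with limma without trend (0.106) or with DESeq2 (0.386). It was also lost without any 1 of WT replicates 1, 2 and 3 and Phe31 replicates 10 and 11, with adjusted p-values by limma of 0.177 to 0.231.

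The Leu-AAG genes were looked at because Leu-AAG-1-2 was called, and it is included in these counts. Of the 5 genes, all tested, 1 was called, or 20% beside 0.775% of all loci, 3 had a lower mean log2 value, and the median change was -0.15, beside 0.01 for all loci tested. In this small group 2 genes did not overlap between groups, both lower, or 40% beside 11.2% of all loci, and the same number had an unadjusted p under 0.05, beside 6.2% of all loci. The copy Leu-AAG-1-1 was lower as well, at 53.4, 63.3 and 58.0 in WT and 45.4, 45.1 and 47.3 in Phe31, without overlap. Its log2 change of -0.33 had an adjusted p of 0.647 by limma. The third copy, Leu-AAG-1-3, had 74.0, 74.3 and 89.4 in WT and 88.8, 77.1 and 71.9 in Phe31, which overlapped, with a log2 change of 0.00. Leu-AAG-2-1 had a log2 change of 0.06 and Leu-AAG-3-1 one of -0.15. The copies of Leu-AAG-1 give the same mature tRNA, so reads are assigned among them by their flanks.

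Other loci that were lower without overlap included Ile-AAT-1-5, which had 38.0, 33.0 and 38.7 in WT and 22.7, 24.4 and 19.9 in Phe31. This isoleucine gene was at 61.1% of WT, and its log2 change was -0.69 (adjusted p = 0.269, limma). Gly-TCC-1-6 was at 82.0% and Leu-TAA-1-1 at 86.1% of WT. Tyr-GTA-4-1, at 86.8%, and Ala-CGC-1-1, at 80.5%, overlapped between groups. None of these passed the test.

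Among loci with higher values, the proline gene Pro-CGG-1-2 had 142.8, 143.1 and 142.5 in WT and 180.5, 164.5 and 184.5 in Phe31, which was 124% of WT without overlap. Its log2 change of 0.30 had an adjusted p of 0.269 by limma. The glutamine gene Gln-TTG-3-2 had 79.1, 80.7 and 85.8 in WT and 104.0, 100.6 and 100.3 in Phe31, which was also 124% (adjusted p of 0.519 by limma). The serine gene Ser-GCT-1-1 was at 148%, the initiator gene iMet-CAT-1-7 at 138%, Leu-CAA-1-1 at 130% and Thr-AGT-2-1 at 128%, all without overlap and none past the test. The selenocysteine gene SeC-TCA-1-1, whose tRNA carries the rare amino acid into selenoproteins, was at 123% with groups that overlapped. The loci with the highest counts, Tyr-GTA-3-1, Tyr-GTA-2-1 and Arg-ACG-1-3, were at 95.3%, 99.8% and 99.1% of WT. The brain gene Arg-TCT-4-1 was at 101%.

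**Figure D3:**
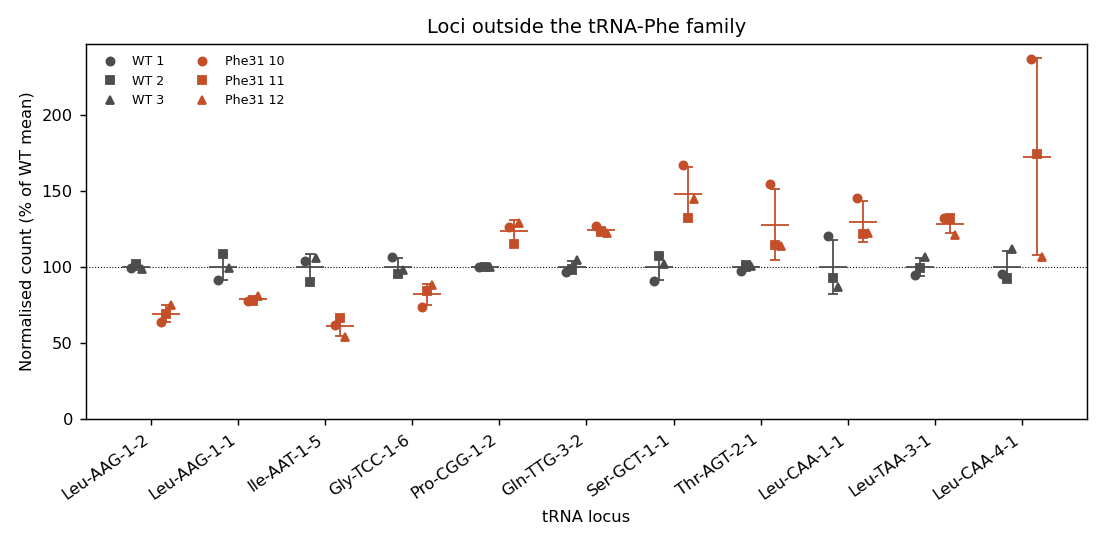
Normalised counts as a percentage of the WT mean (y axis) at 11 loci outside the tRNA-Phe family (x axis); points are libraries and bars are the mean ± SD of 3 per group. The Phe31 libraries lie below WT at Leu-AAG-1-2 and are widely spread at Leu-CAA-4-1, where replicate 12 lies among the WT libraries.

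Some loci were examined because the study names them for the Phe11 line. They were chosen on other knockout libraries but on partly the same WT libraries. Leu-CAA-4-1 had 23.6, 22.9 and 27.8 in WT and 58.6, 43.3 and 26.5 in Phe31. Replicates 10 and 11 were above all WT libraries and replicate 12 lay among them. The mean was 173% of WT, and the log2 change was 0.70 (95% interval 0.17 to 1.22, adjusted p = 0.519, limma). Without Phe31 replicate 12 the change was 1.00 (adjusted p = 0.0195, limma), and without replicate 10 it was 0.44 (adjusted p = 0.951, limma). Leu-TAA-3-1 had 23.6, 24.8 and 26.6 in WT and 33.1, 32.9 and 30.3 in Phe31. These groups did not overlap, and the log2 change of 0.35 had an adjusted p of 0.745 by limma.

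The cysteine family Cys-GCA-4 has 29 loci, of which 4 were tested. It is a multigene family of closely related copies, and how reads were split among them was not measured here. None of the 4 was called and all 4 overlapped between groups, with log2 changes from -0.80 to -0.15. The lowest, at Cys-GCA-4-13, ran from -1.76 to -0.02 without 1 library. It was -0.22 with edgeR and -0.21 with DESeq2. At Cys-GCA-4-12 the counts were 53.4, 12.8 and 22.95 in WT and 6.62, 19.7 and 59.6 in Phe31. WT replicate 1 and Phe31 replicate 12 were the high libraries. The same 2 libraries were the highest at Cys-GCA-4-10, with 31.9 and 28.4, and at Cys-GCA-4-13, with 23.6 and 31.2. Summed over these 3 loci and scaled to a library of mean depth, they had 116.9 and 128.0 reads, and the other 9 brains of the batch, of all genotypes, had 14.1 to 46.6. With both libraries left out, which was chosen after seeing the data and left 2 against 2, 3 loci were called by limma against WT. These were 3-1, Leu-AAG-1-2 and Leu-CAA-4-1, the last with an adjusted p of 0.0476. Phe31 replicate 12 was the Phe31 library that lay among the WT libraries at Leu-CAA-4-1, so leaving it out favours that call.

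tRNAs that read codons differing from a phenylalanine codon by a single base were looked at as a list. Of its 103 loci 52 were tested, 1 was called lower (Leu-AAG-1-2) and none higher by limma, or 1.92% beside 0.775% of all loci tested. An unadjusted p under 0.05 was found at 6, or 11.5% beside 6.2%. There were 23 with a higher and 29 with a lower mean log2 value, and the median change was -0.01, beside 0.01 for all 258 loci tested. In the list 8 loci did not overlap between groups, or 15.4%, beside 11.2% of all loci. Of the 18 genes for the aromatic amino acids tyrosine and tryptophan 16 were tested and none was called, with 1 at an unadjusted p under 0.05. Of the 16, 8 had a higher mean, and their median change was 0.01.

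The share of counts held by the genes of each amino acid does not depend on the size factor. tRNA-Phe held 1.76%, 1.60% and 1.61% of the counts in WT and 1.64%, 1.49% and 1.66% in Phe31. The groups overlapped, and the exact permutation p was 0.6 at n = 3. Of 22 classes, with initiator methionine and selenocysteine apart, 2 did not overlap between groups. Lysine tRNA genes held 3.92%, 3.90% and 3.90% in WT and 4.03%, 4.16% and 4.15% in Phe31. Threonine tRNA genes held 5.78%, 5.92% and 5.86% in WT and 6.18%, 5.95% and 6.32% in Phe31. Both were higher by about the same factor, at 105% of WT. The exact permutation p was 0.1 for each, the smallest possible at n = 3, and 0.629 after adjustment by the Benjamini-Hochberg method over the 22 classes. These classes were picked for their higher shares. Of the 16 threonine loci tested 14 had a higher mean, and of the 16 lysine loci 12, beside 51.9% of all loci tested, and no locus of either class was called, beside 0.775% of all.

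**Figure D4:**
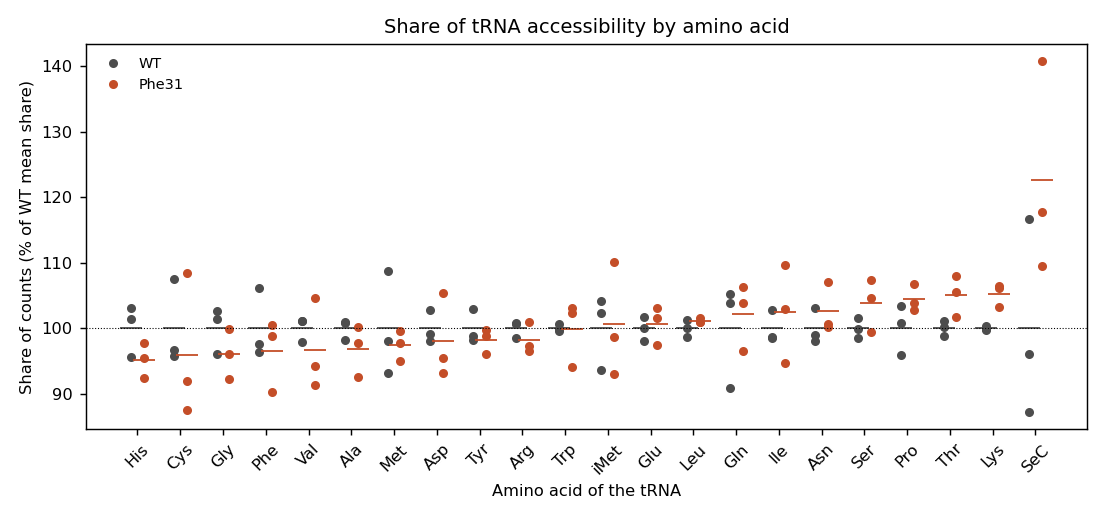
Share of all tRNA counts held by each amino acid, as a percentage of the mean WT share (y axis), for 22 classes ordered by the Phe31 mean (x axis); points are libraries and dashes are group means of 3. Lysine and threonine are the classes whose groups do not overlap, and selenocysteine, which has 1 gene, is the most spread.

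The last question was where Phe31 brain differed from the brains of the other knockout lines. Reads of the 11 brains of batch 1, including 3 Phe21 (tRNA-Phe-GAA-2-1-/-) and 2 Phe11 (tRNA-Phe-GAA-1-1-/-) brains, were put into a single fit and Phe31 was set against each line directly. Values are reads per library of mean depth. Against Phe21, 17 of 276 loci were called by edgeR (6.16%), 11 higher and 6 lower in Phe31. Of these, 3-1 had a log2 difference of -3.84 and 2-1 one of 3.65, each lower in its own knockout. The call at 3-1 held in all 11 fits that left out 1 library, and that at 2-1 in 7 of them. DESeq2 gave no adjusted p at 2-1. That locus had 11.1, 3.07 and 13.2 in Phe31, 1.86, 0 and 0 in Phe21, and 13.2, 1.97 and 11.7 in WT. Against Phe11, 5 of 276 loci were called (1.81%), including 3-1 at -4.18 and 1-1 at 1.33. The count of 17 against Phe21 rests on few libraries. It was 5 without Phe31 replicate 10, 2 without Phe21 replicate 8, 3 without Phe21 replicate 9 and 1 with DESeq2.

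Leu-AAG-1-2 was lower in Phe31 than in Phe21. It had 68.4, 75.7 and 81.3 in Phe31, 99.7, 101.0 and 107.2 in Phe21, and 90.9 and 98.1 in Phe11. Every Phe31 brain lay below the 8 others. The log2 difference was -0.48 against Phe21 (adjusted p of 0.0141 by edgeR) and -0.30 against Phe11 (adjusted p of 0.247 by edgeR). The first call was lost without Phe31 replicate 10, Phe21 replicate 8 or Phe21 replicate 9, and with DESeq2 (adjusted p = 0.0817).

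Leu-CAA-4-1, Leu-TAA-3-1 and Ser-GCT-1-1 were higher in Phe31 than in Phe21. Leu-CAA-4-1 had 62.3, 47.1 and 28.4 in Phe31, 28.9, 16.8 and 20.5 in Phe21, and 59.2 and 63.8 in Phe11. The log2 difference was 1.03 against Phe21 (adjusted p of 0.0139 by edgeR) and -0.39 against Phe11 (adjusted p of 0.399 by edgeR). At Leu-TAA-3-1 the means were ordered Phe21, WT, Phe31 and Phe11, and no 2 groups overlapped. Its log2 difference was 0.74 against Phe21 (adjusted p of 0.0466 by edgeR) and -0.70 against Phe11 (adjusted p of 0.0757 by edgeR). The call was lost in 10 of the 11 fits that left out 1 library, and with DESeq2 (adjusted p = 0.230). Ser-GCT-1-1 was 0.88 higher than in Phe21 on the log2 scale (adjusted p of 0.0212 by edgeR). The calls at Leu-CAA-4-1 and Ser-GCT-1-1 were each lost without Phe31 replicate 10, Phe21 replicate 8 or Phe21 replicate 9, and with DESeq2 (adjusted p = 0.0574 and 0.0995). Against Phe11 the difference at Ser-GCT-1-1 was -0.46 (adjusted p of 0.273 by edgeR).

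Ile-AAT-1-5 was lower in Phe31 than in Phe11. It had 24.1, 26.6 and 21.3 in Phe31 and 45.9 and 57.1 in Phe11, with a log2 difference of -1.07 (adjusted p of 0.0120 by edgeR). In Phe21 it had 41.9, 22.1 and 33.1, which overlapped Phe31. The initiator gene iMet-CAT-1-7 was higher in Phe31, at 62.3, 57.3 and 82.3 against 39.8 and 43.8 in Phe11, with a log2 difference of 0.71 (adjusted p of 0.0497 by edgeR). The call at Ile-AAT-1-5 was lost without Phe31 replicate 10, Phe31 replicate 12 or Phe11 replicate 6, and with DESeq2 (adjusted p = 0.0925). The call at iMet-CAT-1-7 was lost in 7 of the 11 fits without 1 library, and it was not made by limma (adjusted p = 0.0573) or DESeq2 (adjusted p = 0.276). The intact gene 1-5 was not called against either line, with log2 differences of 0.17 against Phe21 and 0.19 against Phe11.

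**Figure D5:**
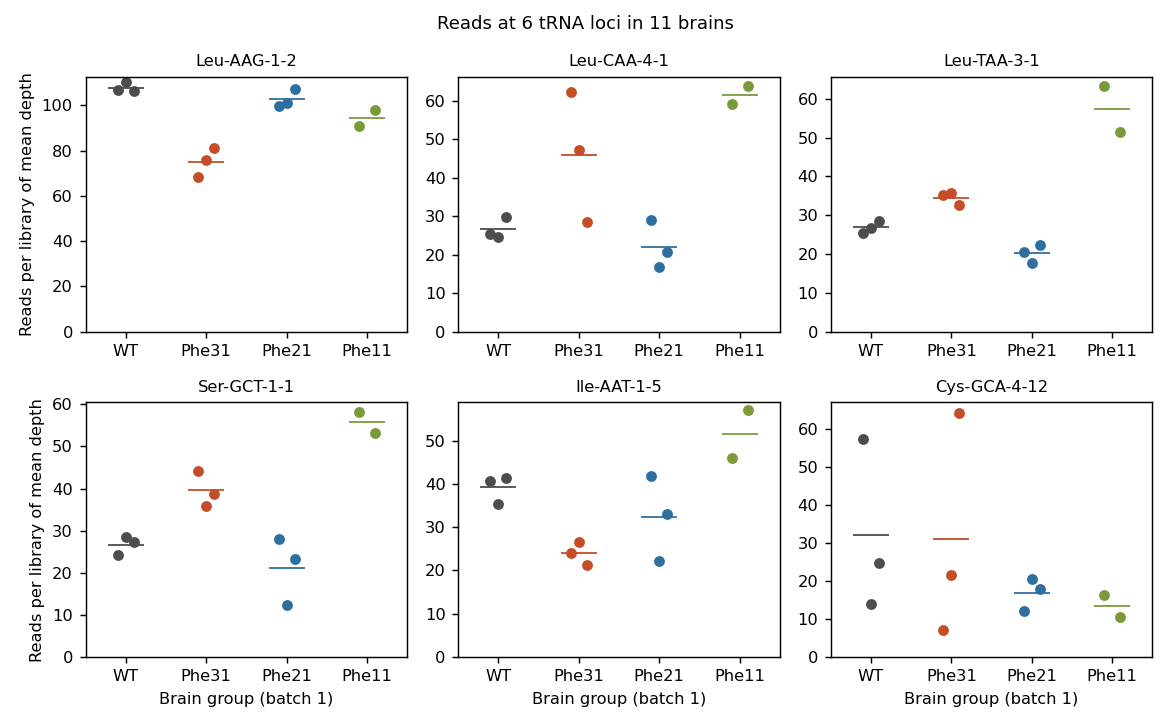
Reads per library of mean depth (y axis) at 6 loci in the 11 brains of batch 1, by group (x axis); points are libraries and dashes are group means (n = 3, and n = 2 for Phe11). Leu-AAG-1-2 is lowest in the Phe31 brains, at 68.4 to 81.3, and at Cys-GCA-4-12 the highest libraries are 1 WT and 1 Phe31 brain.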

How the data were processed

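The authors trimmed reads (Trim Galore 0.6.4), aligned them to GRCm38.p6 (Bowtie2 2.4.1, at most 20 alignments per pair), removed duplicates (Picard 2.23.8), kept a mapping quality of at least 30 and short, nucleosome-free fragments, and counted reads with featureCounts 2.0.0 over each GtRNAdb gene with 50 bases on each side. The deposited signal is these counts, which the authors divided by a DESeq2 size factor per library. Tool versions are from the submitters' processing notes. The deposited log2 concentrations of peaks are the authors' group means. The knockout column of that table is headed Phe11 and was read as Phe31, since the table compares Phe31 with WT. The deposited fold changes and p-values of the authors were not used.

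Whole reads were recovered from the step between values (100% of values whole within 0.01). For Phe31 replicate 11 and Phe11 replicate 6, a separate check on low values could not be made. WT reads were identical in the tables that share them. Values were tested with limma 3.58.1 (trend, two-sided) on log2(normalised count + 1), which understates changes of low loci, for loci with a mean of at least 10, with Benjamini-Hochberg adjustment over these loci and a threshold of 0.05. Single values had exact two-sided permutation tests. The direct contrasts used edgeR 4.0.16 (quasi-likelihood, TMM) on reads. DESeq2 1.42.0 was an alternative. R was 4.3.3. The fit was also run on simulated data with 1 shared setting for the spread of all loci, and the outcome is not given here. Peaks called on both groups were counted under a tRNA gene at an overlap of at least 1 base. The tRNA-Phe genes were found in GRCm39 by the guide site and a 7-pair acceptor stem, and matched to RefSeq by chromosome and order.

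The members and lists were chosen with earlier results of these data known. Named loci were the tRNA-Phe loci, loci past the threshold, the 10 with the smallest p in each direction outside tRNA-Phe (Leu-AAG-1-2 is also among these), the 3 with the highest mean, those that the study names for Phe11, and Arg-TCT-4-1. Other loci named in the text, such as the rest of the Leu-AAG genes, were chosen after their values were seen. Alternatives changed the pseudocount (0.1, 10), the filter (none, 30), the scaling (TMM, equal totals) or the tool (limma without trend, edgeR, DESeq2), or left out each library.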

Additional observations from a re-analysis of the deposited data

Results flagged for a closer look

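Loci outside the tRNA-Phe family whose change differed between knockout lines by the direct test (edgeR, adjusted p under 0.05) are given here with their log2 difference. Against Phe21, Phe31 brain was higher at Ile-AAT-3-1 (1.13), Leu-CAA-4-1 (1.03), Ser-GCT-1-1 (0.88), Thr-AGT-6-1 (0.86), Leu-TAA-3-1 (0.74), Ala-AGC-5-2 (0.58), Arg-ACG-2-1 (0.48), Ala-TGC-1-1 (0.47), Ile-AAT-1-4 (0.47) and Gln-TTG-3-2 (0.46). It was lower at Leu-AAG-1-2 (-0.48), Arg-CCG-3-1 (-0.43), Pro-CGG-1-1 (-0.41), Leu-TAG-3-1 (-0.39) and Asn-GTT-3-7 (-0.30). A difference between lines does not show which line moved from WT. For some of these loci, log2 changes against WT in the same fit follow, for Phe31 and then Phe21. They were 0.01 and 0.31 at Asn-GTT-3-7, -0.07 and 0.32 at Leu-TAG-3-1, and -0.10 and 0.33 at Arg-CCG-3-1. At Ala-TGC-1-1 they were -0.06 and -0.53, at Leu-AAG-1-2 -0.52 and -0.05, and at Leu-CAA-4-1 0.80 and -0.24. Of the 15 loci listed against Phe21, Ile-AAT-1-4 was called in all 11 fits that left out 1 library, with an adjusted p of 0.0574 by DESeq2. The others on the list lost the call in at least 2 of those fits. Ile-AAT-1-4 had a log2 change against WT of 0.12 in Phe31 and -0.36 in Phe21 (adjusted p of 0.949 and 0.0463 by edgeR).

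Against Phe11, Phe31 brain was higher at iMet-CAT-1-7 (0.71) and lower at Ile-AAT-1-5 (-1.07) and Ser-CGA-3-1 (-0.63). The log2 change against WT at Ser-CGA-3-1 was -0.08 in Phe31 and 0.55 in Phe11. At iMet-CAT-1-7 it was 0.48 and -0.23, and at Ile-AAT-1-5 -0.70 and 0.38. All 3 calls were lost without Phe31 replicate 10 and without Phe31 replicate 12, and also without at least 1 of the 2 Phe11 libraries. The call at iMet-CAT-1-7 was lost in 7 of 11 fits without 1 library. Groups of 3 libraries were not tested for outliers.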

How the results depend on the processing

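The loss at 3-1 was called in every fit that included it, with log2 changes of -4.46 and -2.20 at pseudocounts of 0.1 and 10, -4.32 with edgeR, -4.38 with DESeq2 and -4.10 to -3.61 without 1 library. With a mean of at least 30 the locus was not tested. Against WT, 1 locus was called with a mean of at least 30, TMM, equal totals, limma without trend and DESeq2, and 1 to 3 loci without 1 library. With WT replicate 1 and Phe31 replicate 12 both left out, chosen after seeing the data, 3 were called. No scaling moved the median of all loci by over 0.1 on the log2 scale. Against Phe21, 1 locus was called with DESeq2 and 2 to 21 without 1 library, and against Phe11, 2 with DESeq2, 3 with limma, 10 without the filter and 2 to 9 without 1 library. The fits without 1 library of the direct contrasts were chosen after seeing the data.

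The change at 1-1 ran from -0.023 to 0.050 without 1 library, and turned negative without WT replicate 2. The other 4 tested intact genes stayed higher in these fits (0.02 to 0.40). The sum of the 7 genes ran from 94.3% to 100.1% of WT and that of the 6 intact genes from 106% to 112%. Between 4 and 7 amino acid classes did not overlap without 1 library, where 3 against 2 overlap less often. The count of tRNA genes under a peak was 230 or 232 with other overlaps.

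Of 29 other named loci, 5 changed sign in some fit. Tyr-GTA-2-1 was 0.014 with TMM, 9.1e-05 with equal totals, 0.00052 with both libraries left out and -0.062 to 0.048 without 1 library. Arg-ACG-1-3 was 0.017 with both libraries left out and -0.11 to 0.039 without 1 library. Arg-TCT-4-1 was -0.012 with edgeR and -0.087 to 0.14 without 1 library. Without 1 library Cys-GCA-4-10 ran from -0.84 to 0.55 and Cys-GCA-4-12 from -1.06 to 0.43. The cause of these changes was not tested.

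No paired analysis was possible because the Phe31 and WT libraries share no replicate number.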

Other observations

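Of the 143 loci below the filter, 8 did not overlap between groups, or 5.59% beside 11.2% of the loci tested, 7 lower and 1 higher in Phe31. The higher locus was the glutamine gene tRNA-Gln-CTG-1-1, with 8.22, 4.59 and 6.04 in WT and 15.1, 12.2 and 10.4 in Phe31. The lower ones had means under 5 in WT, such as tRNA-Arg-CCT-2-2, with 4.11, 3.67 and 6.04 in WT and 0, 2.82 and 0.946 in Phe31. Both were chosen after their values were seen. In the limma fit without the filter, tRNA-Gln-CTG-1-1 had a log2 change of 0.92 (95% interval 0.044 to 1.79, adjusted p = 0.817) and tRNA-Arg-CCT-2-2 one of -1.50 (95% interval -2.65 to -0.35, adjusted p = 0.569).

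Among the intact tRNA genes that passed the filter, the 2 with the most positive and the most negative log2 change were also low in counts. tRNA-Trp-CCA-4-2 was at 0.75 and tRNA-Ala-AGC-5-3 at -0.82. Neither was called by limma.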
